A study of Homo sapiens with 4 samples.

Results

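The 10 genes described here were FOS, FOSB, FOSL1, FOSL2, JUN, JUNB, JUND, ATF3, EGR1 and ZFP36, which are AP-1 subunits and other immediate early genes, out of 58229 genes in the table. They were chosen by symbol, each symbol had 1 row, and all 10 were among the 14622 genes that reached the level set for testing. The RNA came from CD31+ cells on day 8 of hematopoietic differentiation of H1, which is an established line of human embryonic stem cells. The Control group (2 libraries) came from H1 cells without HAND1 overexpression, and the HAND1_OE group (2 libraries) from H1 cells that overexpressed the transcription factor HAND1. Both groups went through the same stepwise culture, with activin A and BMP4 followed by VEGF and bFGF. The scheme of the study shows the cells with and without doxycycline ahead of collection, and whether the overexpressing line was a single clone is not given in the sources used here. The labels do not say whether the libraries of a group came from separate differentiations, and the methods speak of independent experiments only in general, so the p-values measure only the spread between these libraries, which may be technical.

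AP-1 is a dimer of proteins with a basic region and a leucine zipper. JUN proteins pair with themselves or with FOS proteins, whereas FOS proteins need a JUN partner to bind DNA well. The genes for many subunits are immediate early genes, which are switched on by growth factors or stress within minutes and without new protein synthesis, mainly through MAP kinases acting on serum response factor and its partners at CArG boxes in promoters. Their transcripts are short lived, and ZFP36, itself an immediate early gene, encodes a protein that binds AU-rich transcripts and speeds their decay. In blood-forming tissue JUNB is best known as a brake on the growth of myeloid cells and stem cells, and handling cells with enzymes or sorting them is known to induce many genes of the class.

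Of the 10 genes, JUNB and ZFP36 were called lower in HAND1_OE (limma adjusted p under 0.05) and the other 8 did not pass the test. Over all genes tested 2.11% were called lower. Neither JUNB nor ZFP36 passed in limma with every gene above 0 tested (adjusted p = 0.153 and 0.195). ZFP36 also did not pass after quantile normalization (0.0535). JUNB in HAND1_OE was at 40.2% of its Control mean and ZFP36 at 45.8%. FOS made up nearly the same part of the FOS family transcripts in both groups. The JUNB part of the JUN family was smaller in both HAND1_OE libraries than in either Control library. Within the FOS family the FOSB part was also smaller, and the FOSL2 part larger, in both HAND1_OE libraries than in either Control library. In FOS, FOSB, FOSL1, JUN, ATF3 and EGR1 the Control libraries differed more from each other than the group means did on the log2 scale.

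The promoter sequences of JUNB and ZFP36 are shown because these were the members that passed the test. That of EGR1 is shown because it varied most between the Control libraries. They are RefSeq sequence on GRCh38.p14, all on the plus strand and written 5′ to 3′, and they end before the first base of the gene in RefSeq and in the deposited table. Capitals mark the motifs that were found. The stretches are chr19:12791236-12791485 for JUNB, chr19:39406597-39406812 for ZFP36 and chr5:138465229-138465478 for EGR1.
JUNB: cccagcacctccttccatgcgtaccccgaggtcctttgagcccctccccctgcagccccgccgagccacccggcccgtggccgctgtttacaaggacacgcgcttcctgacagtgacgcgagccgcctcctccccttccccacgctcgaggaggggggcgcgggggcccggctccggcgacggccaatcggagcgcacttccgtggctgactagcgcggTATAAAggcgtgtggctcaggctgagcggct
ZFP36: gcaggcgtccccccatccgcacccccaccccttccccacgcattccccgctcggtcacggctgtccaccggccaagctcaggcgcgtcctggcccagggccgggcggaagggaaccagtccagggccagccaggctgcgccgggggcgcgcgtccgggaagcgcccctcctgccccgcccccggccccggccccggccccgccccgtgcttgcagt
EGR1: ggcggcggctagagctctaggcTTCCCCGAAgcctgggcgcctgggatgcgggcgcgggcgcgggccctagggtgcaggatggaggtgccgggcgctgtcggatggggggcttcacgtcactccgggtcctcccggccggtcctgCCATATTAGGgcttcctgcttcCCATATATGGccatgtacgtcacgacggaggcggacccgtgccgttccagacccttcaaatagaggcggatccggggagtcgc

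Motifs were searched on both strands in the 250 bases before the RefSeq start of each gene, for 35116 promoters in all and for 9 of the 10 genes (FOSL1 was not matched). The motifs were the CArG box, the AP-1 site TGANTCA, the cyclic AMP response element TGACGTCA, the E-box CATCTG that HAND proteins can bind with an E protein, the TATA box TATAAA, the STAT site TTCNNNGAA and the EGR site GCGTGGGCG. Hits of different motifs did not overlap each other. TATAAA was found in FOS, FOSB and JUNB, where it began 33, 30 and 31 bases before the start, and in 10.7% of all promoters. The CArG box was found in EGR1 alone of the 9, at 105 and at 83 bases before the start, and in 1.16% of all promoters. TGACGTCA was found in JUND (1.65% of promoters), CATCTG in ATF3 (12.2%) and TTCNNNGAA in EGR1 (6.57%). TGANTCA (6.57%) and GCGTGGGCG (0.72%) were found in 0 of the 9. The 250 bases of ZFP36 held none of the 7 motifs, and those of JUNB held the TATA box alone. These matches describe letters in 1 window and were not tested for binding.

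Values are FPKM, fragments scaled to transcript length and to library depth, so they can be compared between genes. The depth could be read from genes with a single annotated transcript, because low values are whole multiples of what 1 fragment adds. It came to 21600000 to 26100000 fragments per library after rounding, and at that depth 90.7% to 91.1% of such genes under 20 fragments lay within 0.05 of a whole number. At 20 to 100 fragments the share was 73.4% to 76.0%. The depth was chosen to make values whole fragments, so these shares are not a separate check of it. HAND1 was at 12.1 and 14.3 FPKM in Control, compared with 520 and 517 FPKM in HAND1_OE, as the labels say (log2 fold change 5.20, limma adjusted p = 0.00145). The endothelial genes PECAM1, which encodes CD31, and CDH5 were abundant in all libraries, at 92.0 to 160.2 FPKM and 222 to 280.2 FPKM (adjusted p = 0.955 and 0.727). Of the 10 endothelial genes on the list 1 was called higher and 1 lower (2.04% and 2.11% of all genes tested). VWF, von Willebrand factor, rose from 31.3 and 14.6 FPKM to 107 and 95.4 FPKM (log2 fold change 2.18, adjusted p = 0.0338), and CLDN5, a tight junction gene, fell from 85.0 and 66.1 FPKM to 15.2 and 14.3 FPKM (-2.27, adjusted p = 0.00700).

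The JUN family was the more abundant of the families, and JUNB was its only member that passed the test. JUNB (ENSG00000171223.5, GRCh38 chromosome 19, 12791496 to 12793315, 1 exon) was at 233 and 223 FPKM in the 2 Control libraries, compared with 99.8 and 83.4 FPKM in the HAND1_OE libraries. The Control libraries lay close together and both HAND1_OE libraries lay well below them. The means were 228 ± 6.52 and 91.6 ± 11.5 FPKM (SD, n = 2). In limma the log2 fold change was -1.31 (standard error 0.159, adjusted p = 0.0174). The fold change is a difference of log2(FPKM + 1), and in bulk RNA fewer cells of a type and less RNA per cell cannot be told apart. JUNB has a single annotated transcript of 1820 nt, so its fragments could be counted back, and they came to 7905 and 7437 in Control against 4018 and 2927 in HAND1_OE. Counting error was thus 1.12% to 1.85% of each value. Over 12 alternatives in processing the adjusted p ran from 0.00841 to 0.153, and JUNB did not pass without Control replicate 1 (0.0618), without Control replicate 2 (0.0567) or with every gene above 0 tested (0.153).

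JUN (ENSG00000177606.6, chromosome 1, 58780788 to 58784327, 1 exon), the founding subunit, was at 137 and 196 FPKM in Control, compared with 123 and 133 FPKM in HAND1_OE. The groups did not overlap, but the gap between them was smaller than the gap between the Control libraries. The log2 fold change was -0.36 (standard error 0.209, adjusted p = 0.478). From its single transcript of 3540 nt, JUN had 9921 and 13810 fragments in Control and 10477 and 9915 in HAND1_OE.

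JUND (ENSG00000130522.5, chromosome 19, 18279760 to 18281622), the subunit with the steadiest expression in most cells, was at 273 and 291 FPKM in Control, compared with 242 and 159 FPKM in HAND1_OE. HAND1_OE replicate 2 was the low library, and replicate 1 lay near Control. The log2 fold change was -0.52 (standard error 0.231, adjusted p = 0.341), and it was -0.22 without HAND1_OE replicate 2 and -0.82 without HAND1_OE replicate 1.

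**Figure D1:**
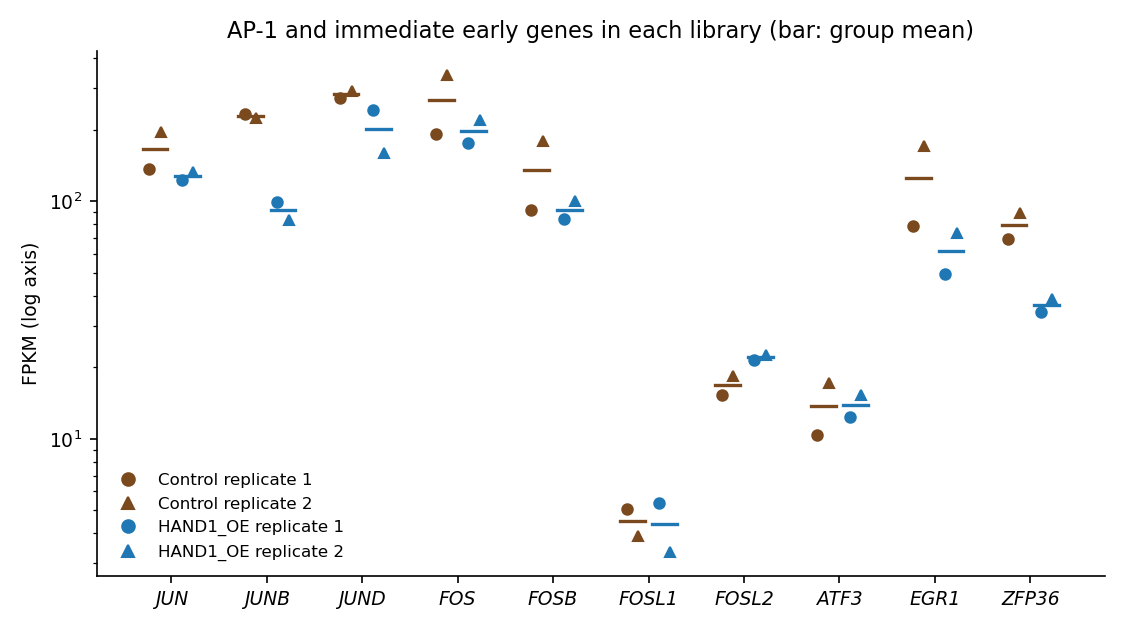
FPKM of the 10 genes in each library on a log axis, with Control in brown, HAND1_OE in blue, replicate 1 as circles, replicate 2 as triangles and group means as bars. JUNB and ZFP36 show 2 well separated pairs, whereas for FOS, FOSB and ATF3 the libraries of the groups interleave.

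JUNB held 36.2% and 31.4% of the summed FPKM of JUN, JUNB and JUND in the Control libraries, and 21.4% and 22.2% in the HAND1_OE libraries. The difference in mean share, HAND1_OE minus Control, was -11.98 percentage points (33.8% ± 3.35 in Control, 21.8% ± 0.536 in HAND1_OE, SD, n = 2). An exact two-sided permutation test gave p = 0.3333, the smallest that 2 against 2 libraries can give. The share uses the same JUNB values as above, so it is not a separate result. The share of JUN was 21.4% and 27.6% in Control and 26.4% and 35.4% in HAND1_OE, and that of JUND was 42.4% and 41.0% against 52.1% and 42.4%, so that for both the groups overlapped. The family sum was 643 and 710 FPKM in Control and 465 and 376 FPKM in HAND1_OE.

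Among the FOS family, FOS and FOSB were abundant and the FOS-related antigens FOSL1 and FOSL2 were not. FOS (ENSG00000170345.9, chromosome 14, 75278774 to 75282230) was at 192 and 342 FPKM in Control, compared with 176 and 221 FPKM in HAND1_OE. Control replicate 2 stood above the other 3 libraries, and the groups overlapped. The log2 fold change was -0.37 (standard error 0.303, adjusted p = 0.626), and without Control replicate 2 it was 0.041.

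FOSB (ENSG00000125740.13, chromosome 19, 45467995 to 45475179) repeated this order of libraries. It was at 92.4 and 179 FPKM in Control, compared with 84.2 and 101 FPKM in HAND1_OE. Its log2 fold change was -0.48 (standard error 0.323, adjusted p = 0.547) and became -0.0056 without Control replicate 2. FOSB overlaps ERCC1, a DNA repair gene on the opposite strand, which was at 33.2 to 76.7 FPKM, and the counting is not stated to use strand.

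FOSL2 (ENSG00000075426.11, chromosome 2, 28392448 to 28417312) was the one member with both HAND1_OE libraries above both Control libraries. It was at 15.3 and 18.3 FPKM in Control, compared with 21.5 and 22.5 FPKM in HAND1_OE (log2 fold change 0.37, standard error 0.159, adjusted p = 0.316). The noncoding genes FLJ31356 and AC104695.3 overlap it and were at 0 to 3.20 FPKM. FOSL1 (ENSG00000175592.8, chromosome 11, 65892049 to 65900573) was the lowest of the 10, at 5.08 and 3.89 FPKM in Control, compared with 5.37 and 3.34 FPKM in HAND1_OE. The groups overlapped (log2 fold change -0.05, adjusted p = 0.953), and the sign of that value turned under quantile normalization (0.065) and median-ratio scaling (0.024).

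FOS held 61.3% to 63.6% of the FPKM sum of its family in all 4 libraries, although that sum ranged from 287 to 543 FPKM. FOSB held 30.3% and 33.0% in Control and 29.3% and 28.9% in HAND1_OE. FOSL2 held 5.03% and 3.37% in Control and 7.51% and 6.46% in HAND1_OE, a mean difference of 2.78 percentage points (exact two-sided permutation p = 0.3333, again the smallest possible).

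**Figure D2:**
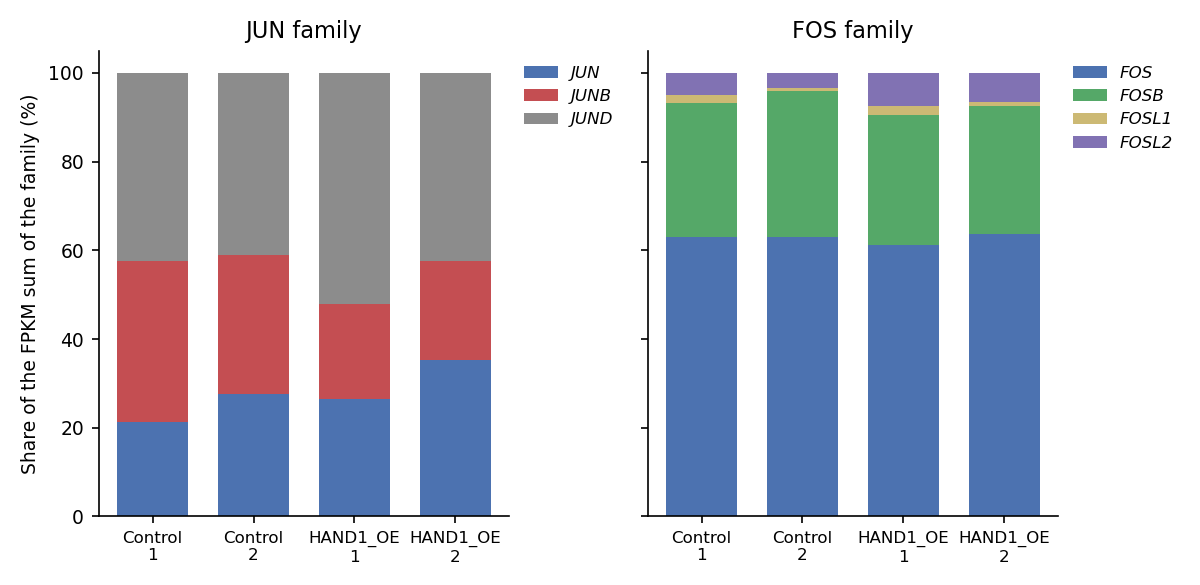
Share of each gene in the FPKM sum of the JUN family (left) and the FOS family (right), in percent, with 1 stacked bar per library. The JUNB share is 31.4% and 36.2% in the Control bars and 21.4% and 22.2% in the HAND1_OE bars, while the FOS share stays between 61.3% and 63.6%. The FOSB share is smaller, and the FOSL2 share larger, in both HAND1_OE bars than in either Control bar.

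The remaining members lie outside the JUN and FOS families. ZFP36 (ENSG00000128016.5, chromosome 19, 39406813 to 39409412), which encodes the RNA-binding protein tristetraprolin, was at 69.7 and 89.5 FPKM in Control, compared with 34.1 and 38.8 FPKM in HAND1_OE. Both HAND1_OE libraries lay at about the same level, well below both Control libraries. The means were 79.6 ± 14.0 and 36.5 ± 3.30 FPKM (SD, n = 2). In limma the log2 fold change was -1.10 (standard error 0.180, adjusted p = 0.0369). Over the same 12 alternatives the adjusted p ran from 0.0131 to 0.195. ZFP36 did not pass with every gene above 0 tested (0.195), after quantile normalization (0.0535) or without Control replicate 1 (0.0605), Control replicate 2 (0.148) or HAND1_OE replicate 1 (0.0817).

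EGR1 (ENSG00000120738.7, chromosome 5, 138465490 to 138469315, 2 exons), a zinc finger factor induced through serum response factor, was at 79.0 and 171 FPKM in Control, compared with 49.6 and 73.9 FPKM in HAND1_OE. Both HAND1_OE libraries lay below both Control libraries, with HAND1_OE replicate 2 only just under Control replicate 1. The mean in HAND1_OE was 49.4% of that in Control, close to the ratio of ZFP36, but the log2 fold change of -0.93 had a standard error of 0.394 and did not pass (adjusted p = 0.314). Leaving out Control replicate 2 gave -0.38, and leaving out replicate 1 gave -1.48. EGR1 had 4995 and 10549 fragments in Control and 3707 and 4828 in HAND1_OE, so counting error was at most 1.64% of a value.

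ATF3 (ENSG00000162772.16, chromosome 1, 212565334 to 212620777), a stress-induced factor of the ATF/CREB family that also pairs with JUN proteins, was at 10.4 and 17.2 FPKM in Control, compared with 12.4 and 15.3 FPKM in HAND1_OE. The HAND1_OE libraries lay between the Control libraries, and the log2 fold change was 0.03 (standard error 0.264, adjusted p = 0.972). It was -0.31 without Control replicate 1 and -0.11 without HAND1_OE replicate 2.

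**Figure D3:**
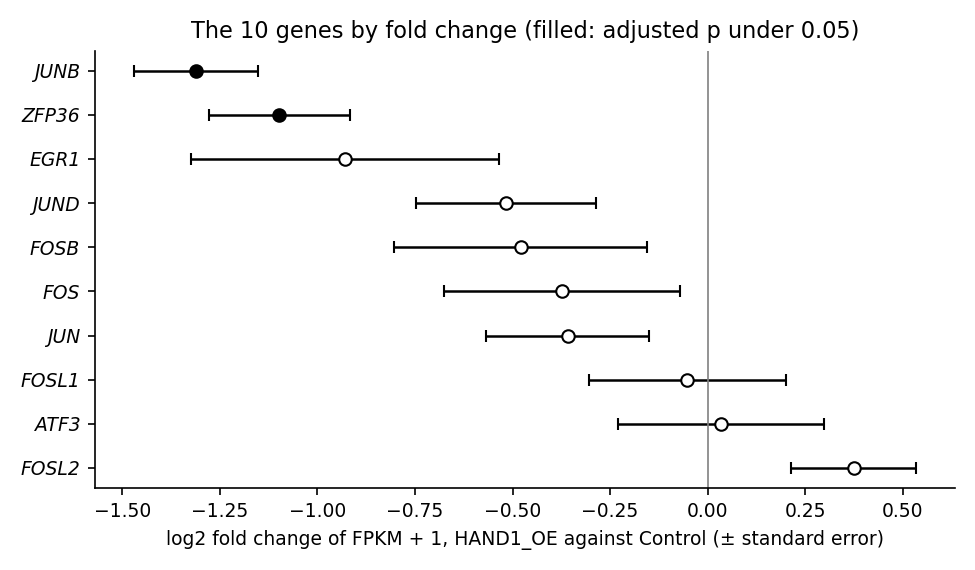
Log2 fold change of FPKM + 1 in HAND1_OE against Control for the 10 genes, ordered by size, with bars for the standard error of the limma fit and filled points for an adjusted p under 0.05. JUNB (-1.31) and ZFP36 (-1.10) are filled, and FOSL2 (0.37) lies at the other end.

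Counted over the 10 genes, 2 were called lower and 0 higher at a limma adjusted p under 0.05, with the same 2 and 0 at an unadjusted p under 0.05. Over all genes tested 2.11% were called lower, 2.04% higher and 4.16% in either direction, and at an unadjusted p under 0.05 the shares were 10.6% lower and 6.82% higher. Both HAND1_OE libraries lay below both Control libraries in 5 of the 10 genes (JUN, JUNB, JUND, EGR1 and ZFP36), where 30.1% of all genes tested did so, and above them in 1 (FOSL2), where 16.2% of all genes did so. The median log2 fold change was -0.43 over the 10 genes and -0.08 over all genes tested. The summed FPKM of the 10 genes was 1106 and 1531 in Control and 848 and 851 in HAND1_OE.

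The ratios of JUNB to the other members use the same JUNB values as above, so they are not a separate result. Within each library, JUNB was lower in HAND1_OE relative to most of the other members. The ratio of JUNB to JUN was 1.69 and 1.14 in Control and 0.811 and 0.628 in HAND1_OE, and that of JUNB to JUND was 0.852 and 0.768 against 0.412 and 0.523. Relative to FOSL2, the ratio was 15.2 and 12.2 in Control and 4.63 and 3.71 in HAND1_OE. Both HAND1_OE libraries had lower ratios than both Control libraries against FOS, FOSB, FOSL1, FOSL2, JUN, JUND and ATF3. This was not so against ZFP36, where the ratio was 3.33 and 2.49 in Control and 2.92 and 2.15 in HAND1_OE, or against EGR1, where it was 2.94 and 1.31 against 2.01 and 1.13. With 2 libraries in each group these ratios were not tested one by one.

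In the order of levels, JUND, FOS and JUNB led in Control, at means of 282, 267 and 228 FPKM, and their ranges overlapped between JUND and FOS and between FOS and JUNB. JUNB lay above JUN in both Control libraries. In HAND1_OE, JUND and FOS still led, at 201 and 199 FPKM with overlapping ranges, followed by JUN at 128 FPKM, FOSB at 92.4 FPKM and JUNB at 91.6 FPKM. JUN was there above JUNB in both libraries, and FOSB and JUNB could not be ordered. ZFP36, FOSL2, ATF3 and FOSL1 took the last 4 places in both groups in this order, although the ranges of FOSL2 and ATF3 overlapped in Control.

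The Control libraries differed from each other in a way that many of these genes shared. Of the 10 genes, 8 were higher in Control replicate 2 than in Control replicate 1, where 45.7% of all genes tested were. The exceptions were JUNB and FOSL1. The difference in log2(FPKM + 1) was 1.10 for EGR1, 0.95 for FOSB, 0.83 for FOS, 0.68 for ATF3, 0.51 for JUN and 0.36 for ZFP36, but -0.06 for JUNB. Only 1.85% of all genes tested were at least as far apart between the Control libraries as EGR1, while 86.0% were at least as far apart as JUNB. Between the HAND1_OE libraries the differences were 0.56 for EGR1, 0.33 for FOS and 0.25 for FOSB, smaller than in Control, while those of JUNB, JUND and FOSL1 were larger than in Control. Of the 10 genes, 7 were higher in HAND1_OE replicate 2, where 50.7% of all genes tested were, and JUNB, JUND and FOSL1 were lower (-0.25, -0.60 and -0.55).

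**Figure D4:**
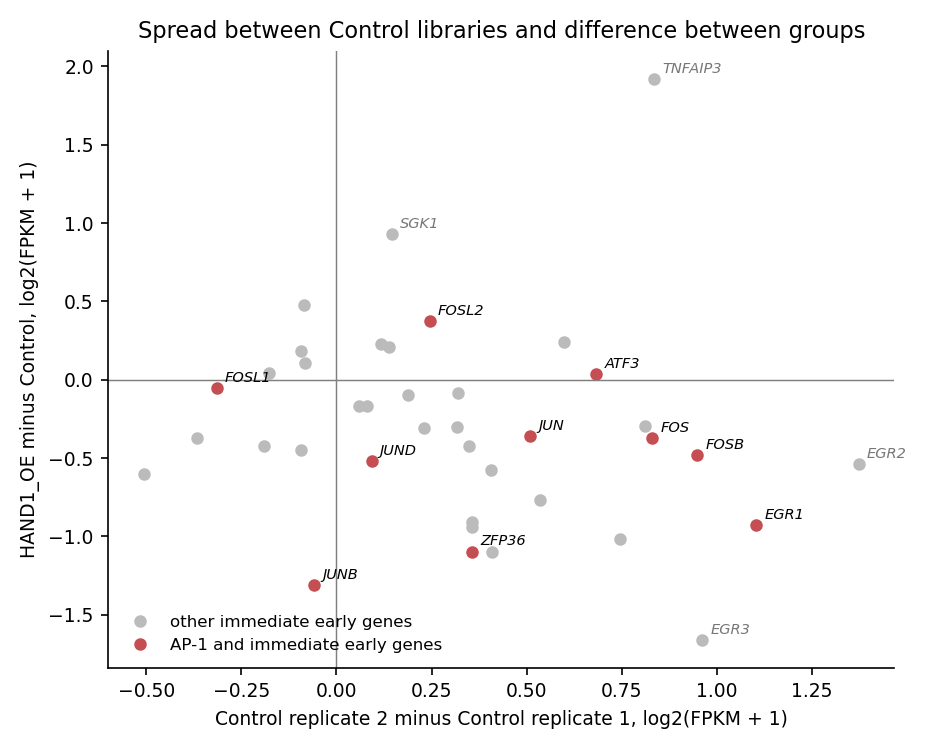
Difference between the Control libraries (x axis) against the difference between the groups (y axis), both in log2(FPKM + 1), for the 10 genes in red and 29 other immediate early genes in grey. The axes share the Control libraries, so their relation is not a result; JUNB sits at -0.06 on the x axis and -1.31 on the y axis, and EGR1 at 1.10 and -0.93.

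Other immediate early genes were examined as a list of 31, of which 29 were tested (EGR4 and NR4A3 were too low). In the list 2 genes were called higher and 0 lower (2.04% and 2.11% of all genes tested), and the median log2 fold change was -0.30. At an unadjusted p under 0.05 there were 3 higher and 10 lower of the 29 (6.82% and 10.6% of all genes tested). TNFAIP3, which encodes an inhibitor of NF-kappaB signaling, rose from 3.31 and 6.68 FPKM to 23.6 and 18.3 FPKM (log2 fold change 1.92, adjusted p = 0.0354). SGK1, a serum- and glucocorticoid-induced kinase, rose from 20.4 and 22.7 FPKM to 43.8 and 40.1 FPKM (0.93, adjusted p = 0.0347). TNFAIP3 did not pass without Control replicate 1 (adjusted p = 0.0550), and SGK1 passed under none of the 4 fits that left out 1 library (0.0545 to 0.158). Both HAND1_OE libraries lay below both Control libraries in 14 of the 29 genes, where 30.1% of all genes tested did so. They lay above them in 5, where 16.2% of all genes tested did so. The count of 0 called lower became 2 among genes with at least 1 FPKM in every library, 1 without Control replicate 1, and 3 among protein-coding genes alone, an alternative added after the data were seen.

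The zinc finger factor EGR3, the nuclear receptor NR4A2 and IER2 had the lowest adjusted p-values among those that were lower, and were singled out after their values were seen. EGR3 was at 5.78 and 12.2 FPKM in Control, compared with 1.89 and 2.10 FPKM in HAND1_OE (log2 fold change -1.66, adjusted p = 0.0619). NR4A2 was at 5.99 and 8.27 FPKM against 2.86 and 2.67 FPKM (-1.10, adjusted p = 0.0524), and IER2 at 330.2 and 423 FPKM against 201 and 197 FPKM (-0.91, adjusted p = 0.0606). Over the 29 genes the log2 fold change ran from -1.66 (EGR3) to 1.92 (TNFAIP3), with 20 below 0 and 9 above.

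Other subunits that can enter AP-1 dimers were measured as a list of 12, of which 9 were tested. With limma 0 of the 9 passed, and 0 did so at an unadjusted p under 0.05. Their median log2 fold change was -0.25. ATF2 and ATF7, which bind cyclic AMP response elements, had log2 fold changes of 0.0028 and -0.25, and JDP2, a repressor that pairs with JUN proteins, had 0.17. The kinases upstream of these genes and the factors of the SRF pathway (19 genes, all tested) had a median of -0.06. With limma 0 of them passed, and at an unadjusted p under 0.05 there was 1 higher and 1 lower (6.82% and 10.6% of all genes tested). SRF itself was at 15.8 to 19.8 FPKM over the 4 libraries (adjusted p = 0.586).

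Among genes that feed back on MAP kinases, 10 were tested, and SPRY1 was called lower and DUSP4 higher (2.11% and 2.04% of all genes tested). Their median log2 fold change was 0.32. SPRY1, an inhibitor of receptor tyrosine kinase signaling, was at 44.9 and 76.3 FPKM in Control, compared with 8.44 and 12.03 FPKM in HAND1_OE (log2 fold change -2.42, adjusted p = 0.0179). DUSP4, a nuclear phosphatase of MAP kinases, was at 3.79 and 4.12 FPKM against 10.8 and 13.8 FPKM (1.41, adjusted p = 0.0219), and did not pass when either Control library was left out. Among classical AP-1 targets, 13 of 18 were tested, and their median log2 fold change was 0.30. Of the 13, 2 were called higher and 0 lower (2.04% and 2.11% of all genes tested). At an unadjusted p under 0.05 there were 3 higher and 2 lower (6.82% and 10.6% of all genes tested). The chemokine gene CCL2 rose from 2.89 and 2.10 FPKM to 10.6 and 9.71 FPKM (1.68, adjusted p = 0.0153), and the cyclin gene CCND1 from 23.4 and 22.0 FPKM to 45.5 and 38.3 FPKM (0.85, adjusted p = 0.0491). CCL2 passed under all 4 fits that left out 1 library, and CCND1 under none of them (adjusted p = 0.0556 to 0.222).

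**Figure D5:**
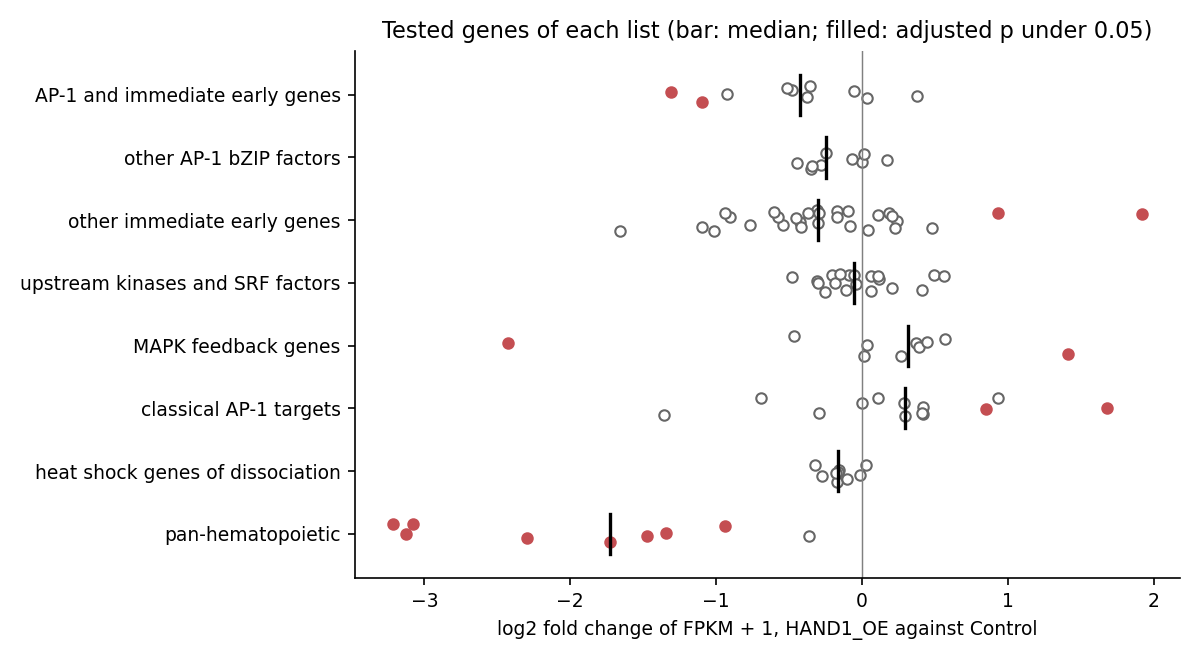
Log2 fold change of FPKM + 1 in HAND1_OE against Control for each tested gene of 8 lists, with the median as a bar and filled points for a limma adjusted p under 0.05. The medians of the AP-1 and immediate early genes (-0.43) and of the other immediate early genes (-0.30) lie below 0, and that of the pan-hematopoietic genes (-1.73) lies furthest down.

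Many markers of other cell types also differed between the groups. Pan-hematopoietic genes, which early blood cells express, summed to 98.6 and 123 FPKM in Control and 18.7 and 24.2 FPKM in HAND1_OE, and 8 of 9 tested were called lower, with PTPRC at 0 to 0.0227 FPKM in all libraries. Erythroid genes summed to 788 and 1130 FPKM in Control and 65.7 and 52.5 FPKM in HAND1_OE, with 8 of 9 called lower. Megakaryocyte and myeloid genes were called lower in 6 of 7 and 4 of 6. Fibroblast and stroma genes summed to 745 to 819 FPKM in Control and 1147 to 1166 FPKM in HAND1_OE, with 4 of 9 called higher. The groups stood apart in all 9, with 7 higher in HAND1_OE and 2 lower. The 2 lower were the collagen genes COL1A1 and COL1A2 (log2 fold change -0.23 and -0.82, limma adjusted p = 0.520 and 0.123). THY1 made the largest part of the sum, at 378 and 383 FPKM in Control and 553 and 628 FPKM in HAND1_OE. POSTN, 1 of the 4 called, was at 0.825 and 0.922 FPKM in Control. Pluripotency genes summed to 83.5 to 97.1 FPKM in Control and 55.8 to 72.7 FPKM in HAND1_OE, with 1 of 6 called lower. Over all genes tested 2.11% were called lower and 2.04% higher. In Control replicate 2, 8 of 9 erythroid, 7 of 9 pan-hematopoietic and 6 of 7 megakaryocyte genes were higher than in Control replicate 1, against 2 of 6 myeloid and 2 of 10 endothelial genes. Without either 1 of the Control libraries 5 pan-hematopoietic genes were called lower, and without Control replicate 1 there were 2 fibroblast and stroma genes called higher. The part of these cells in the levels of JUNB and ZFP36 was not tested.

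Heat shock genes, which handling of cells also induces, did not pass in 9 of 9 tested with limma (0 at an unadjusted p under 0.05), and their median log2 fold change was -0.16. They summed to 2119 and 2036 FPKM in Control and 1975 and 1781 FPKM in HAND1_OE. HSPA1A and HSPA1B, which are near-identical copies, are listed at 0 in all libraries. JUNB overlaps HOOK2, a gene on the opposite strand that was at 50.1 and 44.3 FPKM in Control and 36.2 and 38.9 FPKM in HAND1_OE (log2 fold change -0.32, adjusted p = 0.359). The counting is not stated to use strand, and the part of HOOK2 reads in the JUNB value was not tested.

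The tested genes whose values over the 4 libraries lay nearest to those of JUNB were FCHO1, TFRC and CCDC88B, by Euclidean distance of log2(FPKM + 1) about each gene's mean (0.0463, 0.04996 and 0.0821). TFRC, which encodes the transferrin receptor, was at 13.004 and 12.2 FPKM in Control and 5.21 and 4.05 FPKM in HAND1_OE. FCHO1, an endocytosis gene, was at 6.38 and 5.91 FPKM against 2.23 and 1.61 FPKM. CCDC88B was at 10.2 and 9.81 FPKM against 4.18 and 3.20 FPKM. With 4 libraries many genes share such a pattern, and likeness was not tested.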

How the data were processed

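RNA was measured in 2 Control and 2 HAND1_OE libraries, grouped by the sample titles. The authors deposited 1 table with a value per gene and library, read here as FPKM, the unit in which the study shows expression. The submitters' processing notes name BWA, Bowtie, RSEM and hg19, but 56550 of 58229 genes have the GRCh38 coordinates of GENCODE release 29, which are given here with starts counted from 1. From the 58365 rows, 45 that hold pseudoautosomal genes on Y and 91 that repeated a gene ID were dropped.

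The 14622 genes that reached 1 FPKM in 2 or more libraries were tested as log2(FPKM + 1) with limma 3.58.1 in R 4.3.3, with a mean-variance trend, two-sided, and p-values adjusted by Benjamini-Hochberg over all genes tested. The code was tested on simulated data in 20 draws, with 200 genes changed in each. Of genes changed by 1 on the log2 scale 4.2% were called, and of those changed by 2, 74.65%. On average 4.89% of calls were false, and 2 of 20 draws with no gene changed gave any call. Shares were compared by an exact permutation test. Depth was fitted from genes with 1 transcript of over 800 nt, as the total and the length offset that make values whole fragments.

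The 10 genes and all lists were chosen with earlier results of these data known. Beside the 10 genes and HAND1, up to 3 called genes per list and the 3 nearest to JUNB are named, and others only where said. Alternatives were a pseudocount of 0.1, 2 other filters, quantile and median-ratio scaling, no trend, a replicate block, each library left out and a fold of at least 2. Protein-coding genes alone was added after the data were seen.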

Additional observations from a re-analysis of the deposited data

How the results depend on the processing

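Limits. With 2 libraries per group an exact test cannot go below p = 0.3333, and a gene that misses the threshold is not shown to be unchanged. With each of 29860 genes above 0 in any library tested, JUNB stayed at -1.31 and HAND1 at 5.20 on the log2 scale but neither passed (adjusted p = 0.153 for both), and 0 of the 10 genes, 0 genes upward and 0 genes downward were called by limma (1458 and 2352 at an unadjusted p under 0.05). The prior degrees of freedom of limma were 1.32 there and 3.61 among the 14622 genes. After quantile normalization 1 of the 10 genes was called lower. Leaving out 1 library at a time gave 134 to 266 genes called higher, 137 to 309 called lower, 0 to 2 of the 10 genes called lower and log2 fold changes from -1.44 to -1.18 for JUNB. Of the 10 genes, 0 passed when either Control library was left out. Signs turned when 1 library was left out for FOS (-0.79 to 0.041), FOSL1 (-0.33 to 0.22) and ATF3 (-0.31 to 0.38). The log2 fold change of FOSL1 also turned after quantile normalization (0.065) and median-ratio scaling (0.024). The cause was not tested. The difference in the JUNB share ran from -14.3 to -9.61 percentage points.

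Control and HAND1_OE libraries share the numbers 1 and 2, which the labels do not explain. Deviations of the same-numbered libraries from their group means had a correlation of 0.38 over the genes tested. Whether same-numbered libraries were made together is not stated, and with 2 pairs it was not tested. With the replicate block 597 genes were called higher and 712 lower, and 3 of the 10 genes were called lower (JUNB, ZFP36 and EGR1, the last with an adjusted p = 0.0449). Of the other immediate early genes, 5 were called lower with the block.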
